A study of Homo sapiens with 2 samples.

Results

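Zinc finger genes named ZNF plus a number were compared between 2 sorted fractions of J82, an established human bladder cancer cell line grown in DMEM with serum. The side population (SP) was gated by flow cytometry as the cells that held little Hoechst dye, a DNA stain that efflux pumps remove, and the non-side population (NSP) as the remaining cells; no further treatment is named for either. Total RNA of each fraction was hybridised to 1 human exon array, so there is 1 SP array and 1 NSP array, and replication error is unknown and no p-value is given. All statements describe these 2 arrays. The genes were chosen by their measured signal: a probe set annotated with a single gene symbol counted when the mean of its SP and NSP values was 7.4 or more on the log2 scale, and probe sets of the same gene were averaged. This gave 147 genes of the 284 ZNF genes with such a probe set and of 14232 named genes in all, while 137 ZNF genes lay under that level. The quantity given throughout is the SP value minus the NSP value (log2), so a positive difference means a higher signal in SP. Signals of different probe sets are not comparable as amounts of transcript, and in bulk RNA fewer cells of a kind and less RNA per cell cannot be told apart.

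The ZNF symbol is a naming series and not a single lineage. Most of its members encode Krüppel-type proteins, in which short loops held by a zinc ion between cysteines and histidines lie in tandem and read DNA. Many carry a KRAB domain, which recruits the corepressor TRIM28 and through it the histone methyltransferase SETDB1, and are known for silencing transposable elements; their genes lie in clusters that grew by duplication, many of them on chromosome 19. Others have no KRAB domain and serve as promoter-binding factors, as parts of chromatin complexes, or in RNA metabolism and ribosome assembly.

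The 6 sequences shown here are the upstream regions of the 3 genes with the largest positive and the 3 with the largest negative difference, because these genes mark the ends of the range described below. Each is the 250 bases before the annotated start, from RefSeq on GRCh38.p14, written 5′ to 3′ in the direction of the gene. ZNF217 (chr20:53593840-53594089, minus strand), ZNF644 (chr1:91022036-91022285, minus strand) and ZNF451 (chr6:57089938-57090187, plus strand) were higher in SP. ZNF701 (chr19:52570037-52570286, plus strand), ZNF43 (chr19:21836183-21836432, minus strand) and ZNF778 (chr16:89217453-89217702, plus strand) were lower in SP. Capitals mark GGGCGG (the GC box), CCGGAAG (an ETS core) and ACTACAA (the start of the element that ZNF143 binds), each on either strand.
ZNF217: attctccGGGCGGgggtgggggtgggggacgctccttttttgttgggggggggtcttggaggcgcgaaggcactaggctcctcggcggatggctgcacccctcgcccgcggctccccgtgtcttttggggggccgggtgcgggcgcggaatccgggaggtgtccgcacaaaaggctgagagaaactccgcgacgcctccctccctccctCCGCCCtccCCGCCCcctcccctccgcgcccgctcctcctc
ZNF644: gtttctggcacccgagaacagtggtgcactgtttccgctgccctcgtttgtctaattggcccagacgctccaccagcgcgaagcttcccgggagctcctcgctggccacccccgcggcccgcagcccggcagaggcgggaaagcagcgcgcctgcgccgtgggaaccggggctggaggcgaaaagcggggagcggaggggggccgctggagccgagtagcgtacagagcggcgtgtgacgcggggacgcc
ZNF451: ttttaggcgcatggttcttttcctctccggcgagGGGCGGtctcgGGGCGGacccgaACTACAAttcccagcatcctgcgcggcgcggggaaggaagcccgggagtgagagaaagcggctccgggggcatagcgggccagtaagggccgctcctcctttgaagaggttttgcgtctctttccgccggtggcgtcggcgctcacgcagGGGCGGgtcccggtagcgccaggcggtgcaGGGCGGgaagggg
ZNF701: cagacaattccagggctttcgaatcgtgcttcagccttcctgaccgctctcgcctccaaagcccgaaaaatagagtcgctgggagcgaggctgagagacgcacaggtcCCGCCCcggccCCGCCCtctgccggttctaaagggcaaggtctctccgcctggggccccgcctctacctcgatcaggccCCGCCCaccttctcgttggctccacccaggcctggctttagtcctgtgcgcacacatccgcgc
ZNF43: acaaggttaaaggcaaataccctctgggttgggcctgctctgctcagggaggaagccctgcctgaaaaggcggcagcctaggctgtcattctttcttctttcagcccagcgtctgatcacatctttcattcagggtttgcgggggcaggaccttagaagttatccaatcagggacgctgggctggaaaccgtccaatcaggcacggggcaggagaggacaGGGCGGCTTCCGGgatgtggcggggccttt
ZNF778: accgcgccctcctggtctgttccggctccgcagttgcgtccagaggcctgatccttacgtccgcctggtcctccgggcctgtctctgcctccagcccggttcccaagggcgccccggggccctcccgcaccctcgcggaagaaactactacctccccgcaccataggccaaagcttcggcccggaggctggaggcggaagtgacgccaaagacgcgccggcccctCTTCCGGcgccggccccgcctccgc
GC content of the 6 regions ran between 57.6% for ZNF43 and 72.4% for ZNF217, and none held TATAAA. The GC box occurred 3 times for ZNF217, 4 times for ZNF451, 3 times for ZNF701 and 1 time for ZNF43, and was absent from the windows of ZNF644 and ZNF778, so both ends of the range hold windows with and without it. The ETS core was present in the windows of ZNF43, where it overlapped no base of the GC box beside it, and ZNF778. The letters ACTACAA lay only in the ZNF451 window among the 6.

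The difference of the ZNF genes had a median of -0.072 (quartiles -0.20 and 0.073), against -0.053 over all 7445 named genes chosen by the same level. On the SP array their median signal was 8.21 and on the NSP array 8.26. Of the 147 genes 90 were lower in SP, 56 higher, and ZNF317 had 8.24 on both arrays. That is 61.2% lower, against 59.7% of all named genes at the level, so the count of lower genes was close to the background. With the trend of the difference on signal level removed, the median was -0.028, and -0.0061 over all named genes. At 1.5-fold the ZNF counts leaned to lower in SP, whereas those of all named genes leaned to higher. At 1.5-fold or more, 2 ZNF genes were higher in SP (1.36%, background 2.94%) and 7 were lower (4.76%, background 1.249%). Among the 7, ZNF701, ZNF43 and ZNF778 met the level only through the NSP array. Of the other lower genes ZNF35, ZNF48, ZNF136, ZNF318, ZNF415, ZNF416 and ZNF490 did so too. Of the higher genes ZNF79 alone met it only through the SP array. With a level of 8.0 the counts at 1.5-fold were 2 higher and 3 lower among 90 genes. At the lesser margin of 0.32 on the log2 scale, 10 were higher (background 8.27%) and 23 lower (background 10.2%), and 114 lay within it. No ZNF gene was 2-fold higher in SP (background 0.618%) and 1, ZNF701, was 2-fold lower (background 0.0806%).

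**Figure D1:**
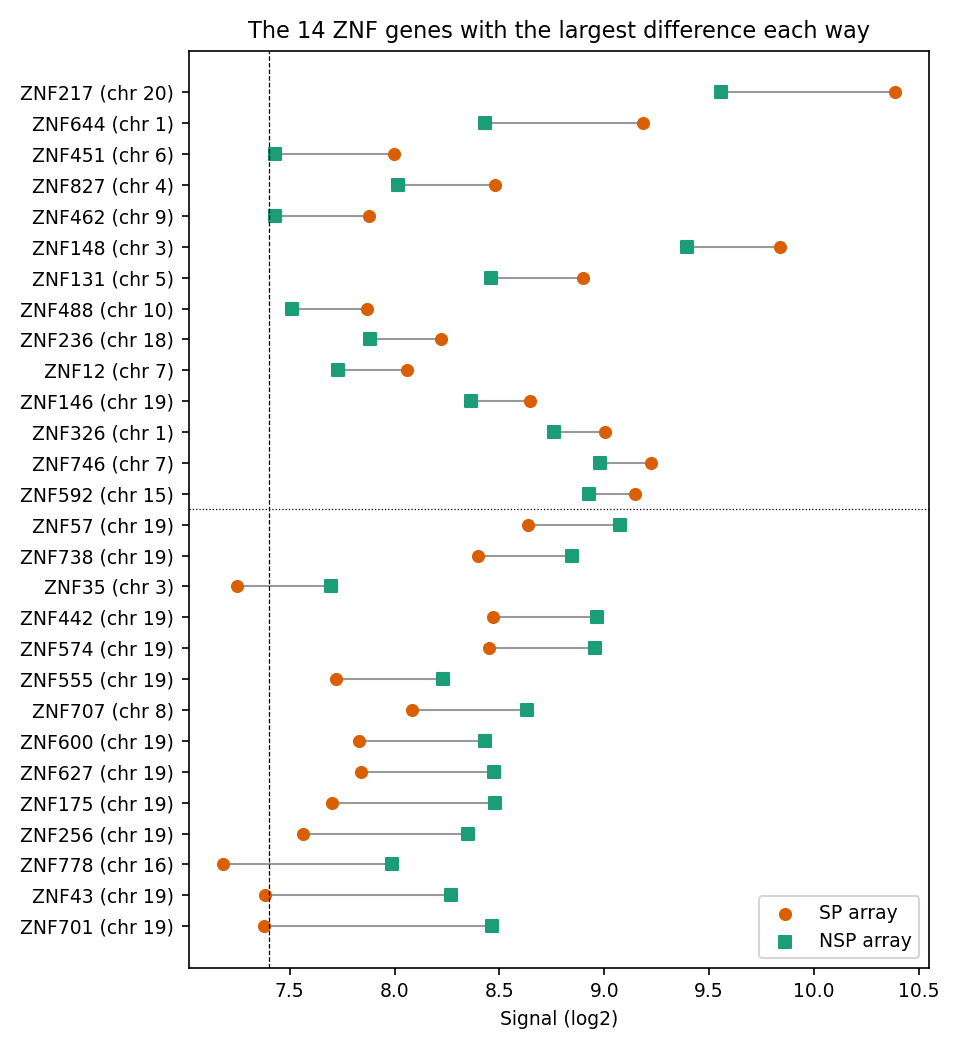
SP (circles) and NSP (squares) signal on the log2 scale for the 14 ZNF genes with the largest positive and the 14 with the largest negative difference, with the chromosome of each gene; the dashed line is the level of 7.4. Of the upper 14 genes 1 lies on chromosome 19 (ZNF146), and of the lower 14 genes 11 do.

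ZNF217, an oncogene product that binds the CoREST corepressor and is amplified in several carcinomas, had a signal of 10.39 in SP and 9.56 in NSP, a difference of 0.83 or 1.78-fold. ZNF644, a partner of the histone H3 lysine methyltransferases EHMT1 and EHMT2, had 9.18 in SP and 8.43 in NSP (0.75, 1.68-fold). These were the 2 genes past 1.5-fold on the higher side, and ZNF217 was also the ZNF gene with the highest mean value. ZNF451, a ligase for the small modifier SUMO, had 7.998 in SP and 7.43 in NSP (0.57, 1.49-fold), just short of that fold. ZNF827, which brings the NuRD complex to telomeres, had 8.48 in SP and 8.02 in NSP (0.46), and ZNF462, a chromatin-associated factor mutated in a developmental syndrome, 7.88 in SP and 7.43 in NSP (0.45). ZNF148, which binds GC-rich promoters, had 9.84 in SP and 9.40 in NSP (0.44). The 6 genes of this paragraph lie on 6 different chromosomes and none on chromosome 19.

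The further genes on the higher side differed by less. ZNF131, with a BTB domain beside its fingers, had 8.90 in SP and 8.46 in NSP (0.44). ZNF488, a cofactor in oligodendrocyte development in the mouse, had 7.87 in SP and 7.51 in NSP (0.36), and ZNF236 had 8.22 in SP and 7.88 in NSP (0.34). ZNF12, a KRAB protein, had 8.06 in SP and 7.73 in NSP (0.33), the last gene past the margin of 0.32. Below it lay ZNF146, a protein made almost only of fingers (0.28, against -0.87 in a probe set it shares with ZNF565 and ZFP14), ZNF326, of the DBIRD complex that links transcription to splicing (0.25), ZNF746, the parkin substrate PARIS (0.24), and ZNF592 (0.22).

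The lower side held more genes at 1.5-fold. ZNF701, a KRAB protein, had 7.38 in SP and 8.47 in NSP, a difference of -1.09 or 2.12-fold. ZNF43, also of the KRAB class, had 7.38 in SP and 8.27 in NSP (-0.89, 1.85-fold). ZNF778 had 7.18 in SP and 7.99 in NSP (-0.81, 1.75-fold) and is the only one of the 7 genes not on chromosome 19; it lies on chromosome 16. The SP values of these 3 genes lay under 7.4, so they met the level through the NSP array. ZNF256, a KRAB protein, had 7.56 in SP and 8.35 in NSP (-0.79, 1.73-fold), and ZNF175, described as a repressor of the HIV promoter in macrophages, had 7.70 in SP and 8.48 in NSP (-0.78, 1.72-fold). ZNF627 had 7.84 in SP and 8.47 in NSP (-0.63, 1.55-fold), and ZNF600 had 7.83 in SP and 8.43 in NSP (-0.60, 1.52-fold). A brighter probe set that ZNF600 shares with ZNF808, ZNF611 and ZNF578 had a difference of 0.035, so the value of ZNF600 rests on its own probe set alone. All 7 had a mean value under 8.2, in the lower part of the signal range. ZNF707 (-0.55), ZNF555 (-0.51), ZNF574 (-0.50), ZNF442 (-0.50), ZNF35 (-0.45), ZNF738 (-0.45) and ZNF57 (-0.44) followed, within 1.5-fold. Of these ZNF35 (7.25 in SP) met the level only through the NSP array.

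The 8 ZNF genes with the highest mean value were ZNF217, ZNF331, ZNF384, ZNF148, ZNF532, ZNF195, ZNF580 and ZNF281. ZNF331, an imprinted gene of chromosome 19, had 9.68 in SP and 10.10 in NSP (-0.42), the most negative difference among the 8. ZNF195 (9.47 in SP and 9.59 in NSP) and ZNF580 (9.44 in SP and 9.61 in NSP) differed by -0.12 and -0.17. Across the 147 genes the difference had a Spearman correlation of 0.015 with the mean value, and over the 7298 genes outside the family one of -0.088; these are descriptions across genes that share 2 arrays. In 5 ranges of the mean value the share of ZNF genes lower in SP lay on both sides of that outside the family. It was 57.5% of 40 ZNF genes between 7.4 and 7.8, against 48.8% outside the family, 63.6% of 33 between 7.8 and 8.2, against 57.5%, and 71.4% of 21 between 8.8 and 9.5, against 62.9%. Between 8.2 and 8.8 it was 60.0% of 45, against 59.6%, with a median difference of -0.036, against -0.057. Above 9.5 it was 50.0% of only 8 ZNF genes, against 65.8%, with a median of 0.023, against -0.078. At the choosing level itself, ZNF318 (7.41), ZNF490 (7.43), ZNF140 (7.44) and ZNF416 (7.45) were the 4 genes just inside by their mean value, with differences of -0.26, -0.29, 0.040 and -0.28. ZNF107 (7.398), ZNF510 (7.38), ZNF341 (7.38) and ZNF544 (7.38) were just outside, with -0.052, 0.18, 0.071 and -0.18.

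**Figure D2:**
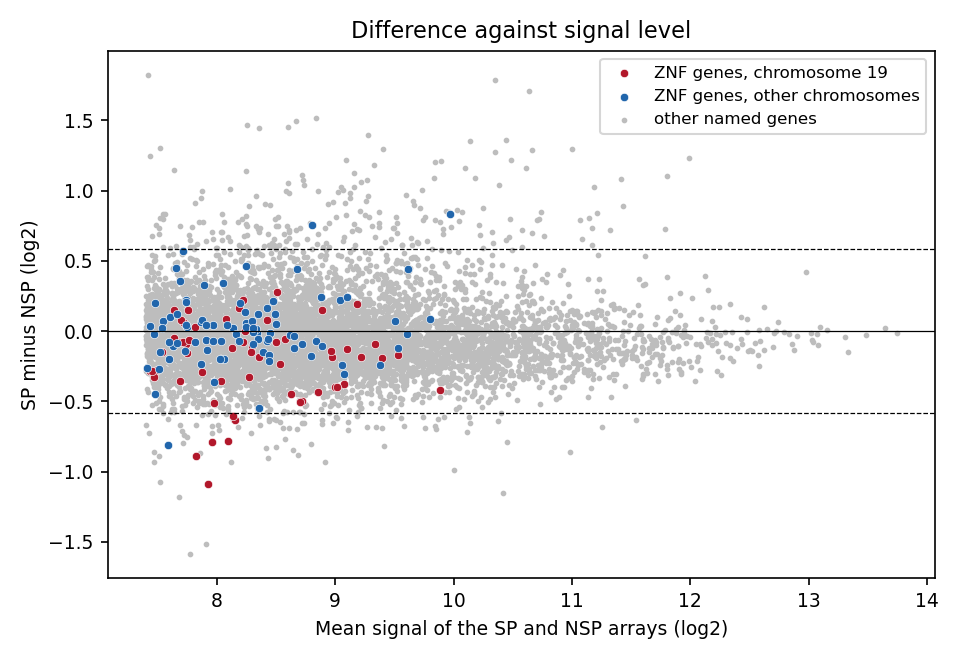
Difference (SP minus NSP, log2) against the mean signal of both arrays (log2) for ZNF genes on chromosome 19, ZNF genes on other chromosomes and all other named genes at 7.4 or more; dashed lines mark 1.5-fold. The 7 ZNF genes below the lower line have mean values between 7.58 and 8.16, and the 2 above the upper line have 8.81 and 9.97.

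The difference was lower for ZNF genes of chromosome 19, a property that the choice of genes did not use. This split was chosen after the values were seen. Of the 147 genes 59 lie on chromosome 19 and 88 on other chromosomes. The 59 had a median difference of -0.16 (quartiles -0.37 and -0.052), and 45 of them (76.3%) were lower in SP. Of the 45, ZNF43, ZNF136, ZNF415, ZNF416, ZNF490 and ZNF701 met the level only through the NSP array. The 88 had a median of -0.0092 (quartiles -0.11 and 0.12), a sign that turned with centring, and 45 of them (51.1%) were lower. No chromosome 19 gene reached 0.32 on the higher side, where the largest difference was the 0.28 of ZNF146, and 19 reached it on the lower side. Elsewhere 10 reached 0.32 on the higher side and 4 on the lower. Over all named genes at the level the shares past this margin were 8.27% higher and 10.2% lower.

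The same direction was present in chromosome 19 genes outside the family. The 497 such genes at the level had a median of -0.19 and 77.7% were lower in SP, almost the share of the ZNF genes there. At the margin of 0.32, 8 of the 497 were higher and 99 lower. Genes outside the family on all other chromosomes had a median of -0.044 with 58.4% lower. At a mean of 7.4 or more, a lower median was thus present in both sets of chromosome 19 genes and not in the ZNF genes alone. What differed in count was the lower end: 6 of 59 ZNF genes of chromosome 19 (10.2%) were at least 1.5-fold lower in SP, against 10 of 497 other genes there (2.01%), while the median SP and NSP signals were 8.18 and 8.35 in the ZNF genes and 8.62 and 8.84 in the others. ZNF701 and ZNF43 are among the 6 and met the level only through the NSP array. With a level of 8.0 the ZNF genes at least 1.5-fold lower numbered 3 over all chromosomes, against 7 at 7.4. These 3, ZNF175, ZNF600 and ZNF627, all lie on chromosome 19, where 37 ZNF genes reached 8.0. The count of other genes past that fold was not taken at 8.0. With no replicate the excess has no test. Under the level of 7.4 the 2 sets ran opposite ways: 66 ZNF genes of chromosome 19 had a median of -0.095, and 326 other genes there had one of 0.097. Those ZNF genes did not enter by the choosing rule, and 44 of the 66 (66.7%) were lower in SP. Under the level 24.5% of the 326 other chromosome 19 genes were lower, and 38.1% of all 6687 genes outside the family.

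**Figure D3:**
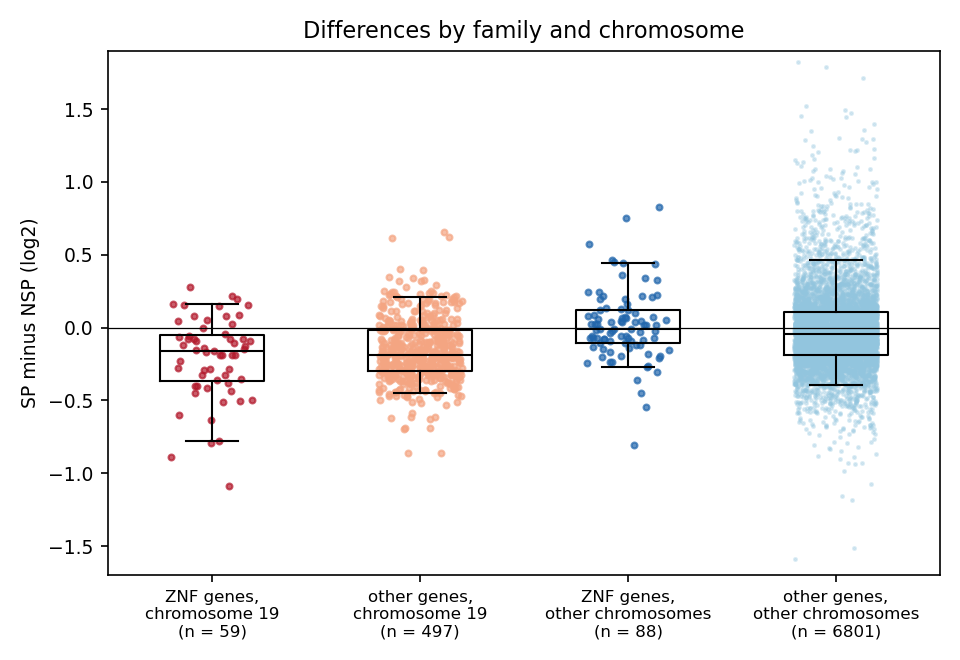
Differences (SP minus NSP, log2) of named genes at 7.4 or more in 4 groups by family and chromosome; points are genes, boxes show the median and quartiles and whiskers the 5th and 95th percentiles. The 2 chromosome 19 groups have medians of -0.16 and -0.19, and the 2 groups of other chromosomes -0.0092 and -0.044.

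The other chromosomes with at least 5 ZNF genes had medians between -0.16 and 0.094. The 14 genes of chromosome 7 had a median of -0.028, against -0.029 for the 337 other genes there. The 12 genes of chromosome 16, with ZNF778 among them, had -0.070, against -0.027 for the rest of that chromosome. The 10 genes of chromosome 1 had 0.094, against -0.027. On chromosome 12 the 5 ZNF genes had 0.040 while the 405 other genes had -0.13, so a chromosome with a low median did not always hold low ZNF genes. Chromosomes 3 and 8 had 7 and 6 ZNF genes, with medians of -0.0076 and -0.16, against -0.023 and -0.032 for the rest of each.

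Neighbours on chromosome 19 were then read in gene order. Genes of the set no more than 5 coding genes apart were joined into runs, and 12 runs held at least 3 genes, 9 of them on chromosome 19 with 33 genes. In 8 of the 9 the median difference was below 0, and in 4 every gene was lower in SP. Over the whole chromosome 76.3% of the ZNF genes and 77.7% of the 497 other genes at the level were lower. Nothing about neighbours is therefore read from these counts. The run of ZNF480, ZNF528, ZNF701, ZNF83, ZNF600 and ZNF468 had a median of -0.36, with 5 of 6 lower and ZNF480 at 0.15. It holds 2 of the 7 genes past 1.5-fold, ZNF701 and ZNF600, with ZNF83 (-0.29) between them, so no adjacent pair of the set passed that fold. ZNF577, ZNF613 and ZNF614 had -0.38, -0.35 and -0.14. ZNF554, ZNF555 and ZNF57 had -0.080, -0.51 and -0.44, and ZNF136, ZNF442 and ZNF490 had -0.28, -0.50 and -0.29. ZNF136 (7.36 in SP) and ZNF490 (7.29 in SP) met the level only through the NSP array, as did ZNF701. The exception among the 9 runs was that of ZNF146 (0.28), ZNF566 (0.027), ZNF529 (0.048) and ZNF382 (-0.19), with a median of 0.038. Duplicated neighbours share sequence, so probe sets of neighbouring genes can take signal from one another and do not count as independent values. With only the first gene of each run or single position kept, the chromosome 19 median was -0.092 over 29 genes, 20 of them lower. The 497 other genes there, not thinned in this way, had a median of -0.19 with 77.7% lower.

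**Figure D4:**
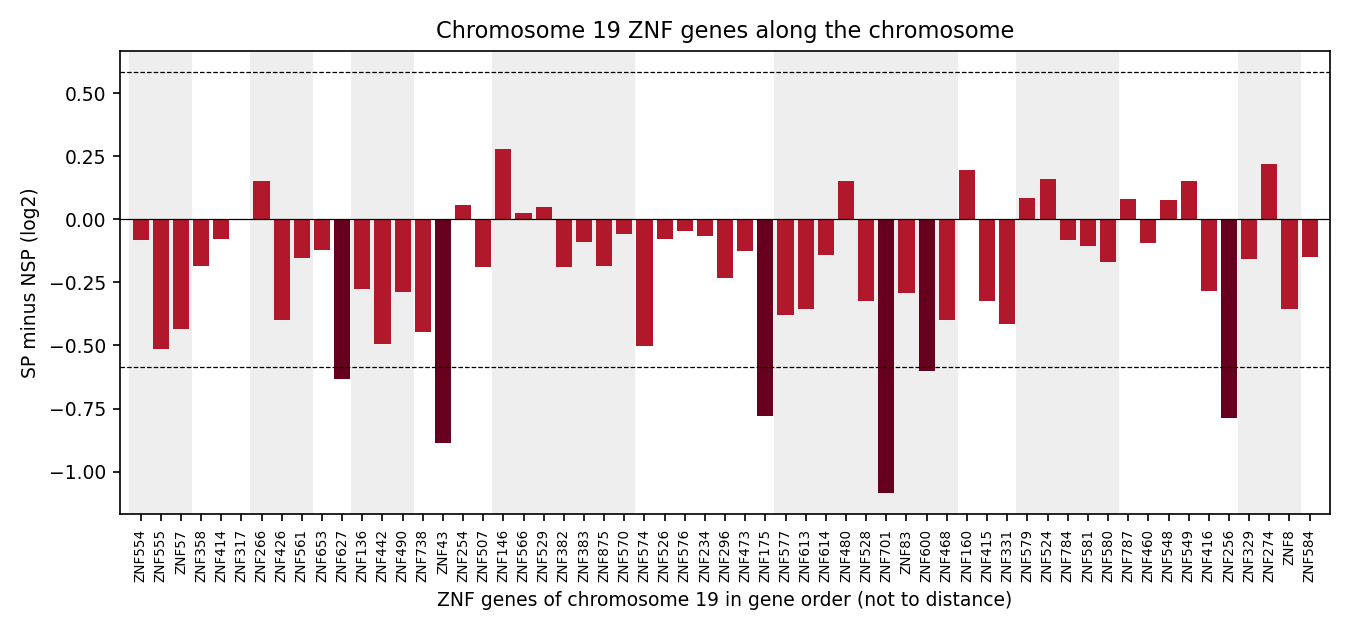
Difference (SP minus NSP, log2) of the 59 chromosome 19 ZNF genes in gene order, spaced evenly; grey bands mark runs of at least 3 neighbours, dark bars the 6 genes at least 1.5-fold lower in SP, and dashed lines 1.5-fold. Bars below 0 occur along the whole order, 45 in all, and 13 lie above 0.

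The ZNF genes with a known molecular role were named from a list of 47 entries written with earlier results of these data known, and 28 of them were in the set. They are all on other chromosomes except ZNF274. Of the 28, 18 (64.3%) were higher and 10 lower in SP, with 40.0% of all named genes at the level higher. Their median was 0.060, and the 119 genes without an entry had a median of -0.092 with 80 lower. Over the 27 on other chromosomes the median was 0.052, against -0.036 for the 61 others there. A total of 9 belonged to chromatin complexes or DNA repair, of which 7 were higher, and the 9 had a median of 0.45. Of the 9, 5 were higher by 0.32 or more, a margin that 8.27% of all named genes passed; with the list written with results known, nothing is read from that count. Besides ZNF217, ZNF644, ZNF451, ZNF827 and ZNF462, all past 0.32, these were ZNF592 (9.15 in SP and 8.93 in NSP, 0.22) and ZNF335 (0.017), a subunit of a histone H3 lysine methyltransferase complex. ZNF687 and ZNF532, which share the ZMYND8 complex with ZNF592, had -0.011 and -0.022, so the 3 partners did not differ alike. ZNF644, ZNF827, ZNF462 and ZNF532 are genes longer than 100 kb, and ZNF217 and ZNF451 are shorter. The 7 ZNF genes over 100 kb had a median of 0.44, with 1 lower in SP. Outside the family 1211 genes of that length had a median of 0.067, with 36.6% lower. The part of gene length was not tested.

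Among 8 promoter-binding factors 6 were higher, with a median of 0.078. After ZNF148 came ZNF143, an activator of snRNA and housekeeping promoters, with 7.84 in SP and 7.63 in NSP (0.22). Its paralogue ZNF76 had 7.78 in SP and 7.85 in NSP (-0.077). ZNF362 (0.14), ZNF384 (0.087), ZNF281, a regulator of pluripotency and mesenchymal genes (0.069), ZNF263 (0.024) and ZNF410, an activator of CHD4 (-0.061), lay within 0.32. The ZNF384 value is that of its bright probe set; a second one, at a mean of 6.11, gave 0.48. ZNF703, a developmental regulator tied to luminal breast cancer, had 8.58 in SP and 8.37 in NSP (0.22).

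Among KRAB repressors with known use or targets the role list named 2 genes of the set. Genes described above that had no entry, such as ZNF175 and ZNF746, were not counted here. ZNF274, which marks the 3′ ends of ZNF genes with SETDB1, had 8.33 in SP and 8.11 in NSP (0.22), and ZNF445, a keeper of imprints, 8.40 in SP and 8.46 in NSP (-0.060). The 8 genes of RNA, ribosome and nucleolar functions had a median of -0.033 and a range between -0.21 and 0.25, none past 0.32. ZNF830, a spliceosome-associated protein, had 8.34 in SP and 8.55 in NSP (-0.21). ZNF598, the ligase that marks collided ribosomes (-0.011), ZNF622 and ZNF593, assembly factors of the large ribosomal subunit (0.040 and -0.068), ZNF330 (0.052), ZNF346, a binder of double-stranded RNA (-0.090), and ZNF106 (-0.056) differed little.

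**Figure D5:**
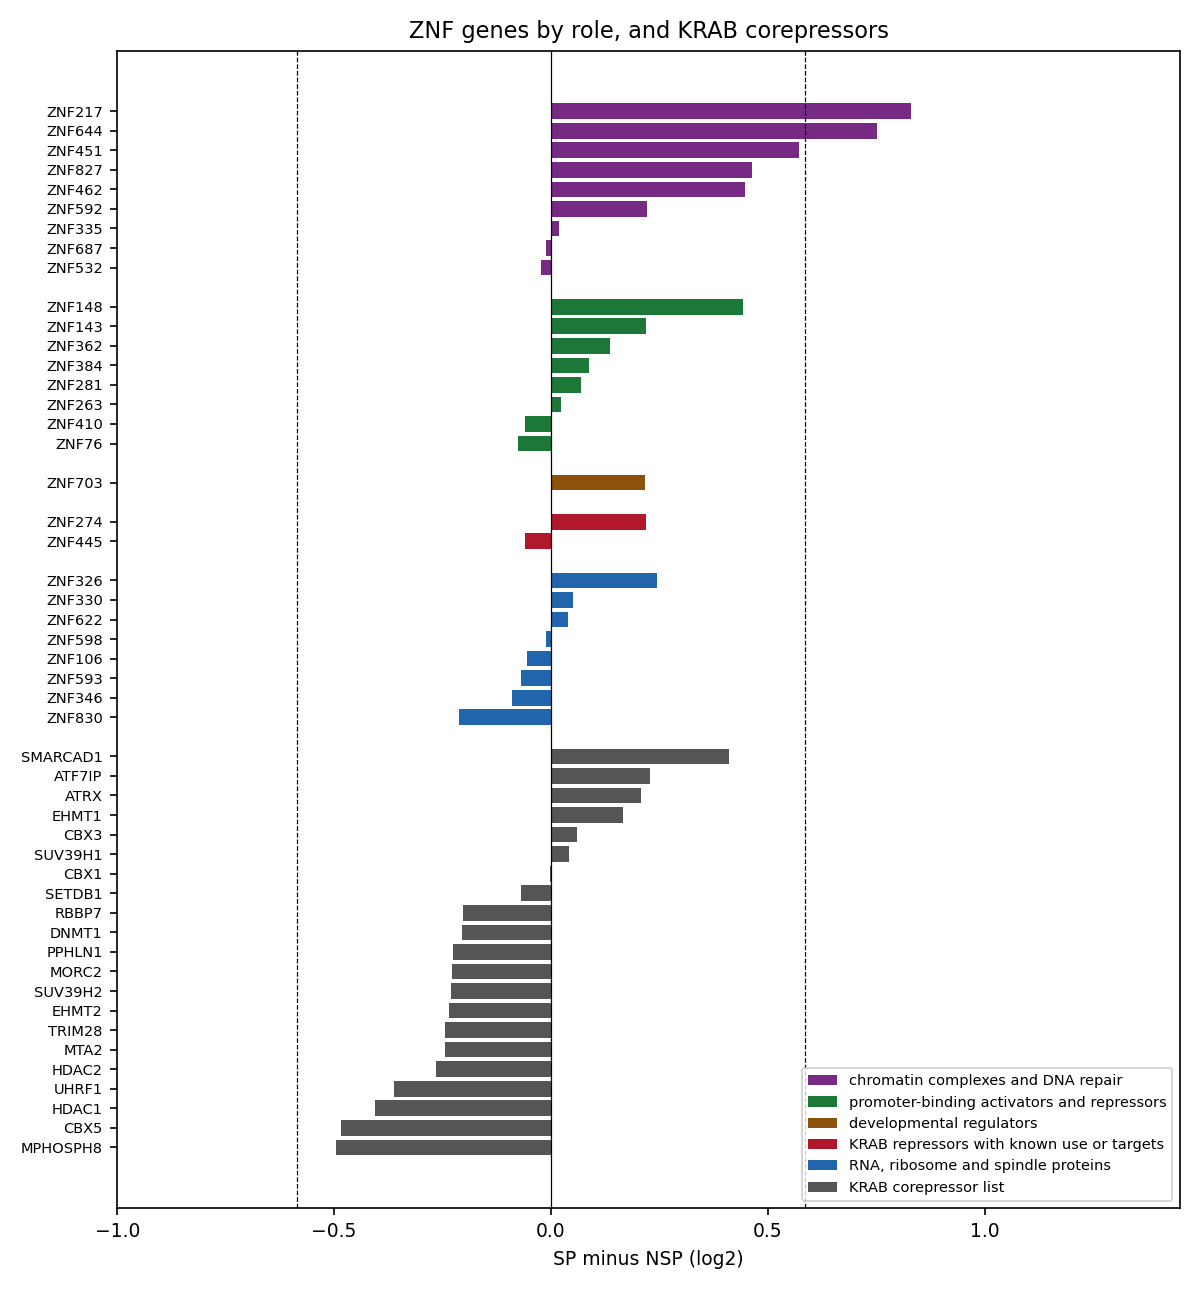
Difference (SP minus NSP, log2) of the 28 ZNF genes with a listed role, by role, and of the 21 genes of the KRAB corepressor list at 7.4 or more; dashed lines mark 1.5-fold. Of 9 genes of chromatin complexes 7 point to higher in SP, and of 21 corepressor genes 15 point to lower. Of all named genes at the level 40.0% were higher and 59.7% lower. The roles and the list were chosen with earlier results of these data known, so nothing is read from these counts.

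The corepressor machinery that KRAB proteins act through was read from a list of 32 genes, of which 27 were measured and 21 reached the level. Of these 15 (71.4%) were lower in SP and 6 higher, against 59.7% lower over all named genes at the level. Their median was -0.23, against -0.053 over all named genes, and none reached 1.5-fold. At the margin of 0.32, 1 was higher (background 8.27%) and 4 were lower (background 10.2%). TRIM28, itself on chromosome 19, had 10.25 in SP and 10.49 in NSP (-0.24), and SETDB1 7.79 in SP and 7.86 in NSP (-0.069). MPHOSPH8, of the HUSH silencing complex, had 8.13 in SP and 8.63 in NSP (-0.50), CBX5, the heterochromatin protein HP1 alpha, 9.85 in SP and 10.33 in NSP (-0.48), and the deacetylase HDAC1 10.29 in SP and 10.70 in NSP (-0.40). On the other side the remodeller SMARCAD1 had 7.71 in SP and 7.30 in NSP (0.41), ATF7IP, the partner of SETDB1, 9.38 in SP and 9.15 in NSP (0.23), and ATRX 8.03 in SP and 7.82 in NSP (0.21). EHMT1 and EHMT2, the partners of ZNF644, had 0.17 and -0.24. Of the markers of proliferating cells 8 of 8 were lower in SP, with a mean value of 9.005 in SP and 9.33 in NSP and a median difference of -0.35. Their part in the values of the corepressor and ZNF genes was not tested.

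Upstream windows were matched for 127 of the 147 genes and for 6197 of the named genes at the level. The ETS core CCGGAAG, searched on both strands, was in 29.9% of the ZNF windows, 16.6% of those of all genes at the level and 8.82% of all 27305 windows. The GC box GGGCGG was in 63.8%, 70.3% and 42.3%, CCAAT in 38.6%, 35.6% and 33.0%, and TATAAA in 1.57%, 5.16% and 11.1%. The letters ACTACAA were in 6 ZNF windows (4.72%), 3.50% of those at the level and 2.64% of all. None of these shares was tested, and family members share descent. The 38 ZNF genes that held the ETS core had a median of -0.065 and the 89 without it -0.080. With the GC box the median was -0.10 over 81 genes, and without it -0.026 over 46. Over all genes at the level with a window the medians were -0.053 with the GC box and -0.051 without it. For the ETS core they were -0.093 with it and -0.043 without it. On chromosome 19 the windows had a median GC content of 61.6% and 18 CpG, against 65.6% and 21 CpG for ZNF genes elsewhere.

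Related families of finger proteins gave fewer genes at the level. Of 22 ZBTB genes, which join fingers to a BTB domain, 13 (59.1%) were lower in SP with a median of -0.016. Of all named genes at the level 59.7% were lower, with a median of -0.053. The 5 ZSCAN and 3 ZKSCAN genes, with a SCAN domain, had medians of -0.053 and -0.34, and all 3 ZKSCAN genes were lower. No test sets these families apart from the ZNF genes.

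Of 22011 probe sets on each array 14432 carried a single symbol, and the Pearson r between SP and NSP was 0.986 over all probe sets. Of 13 urothelial markers 6 reached 7.4, and of these 5 were higher in SP and 1 lower, with a median difference of 0.20. The 6 were PPARG (0.69), KRT8 (0.42), KRT18 (0.25), KRT19 (0.15), KRT7 (0.015) and FOXA1 (-0.056). The other 7, GATA3, ELF3, KRT20 and the 4 uroplakin genes UPK1A, UPK1B, UPK2 and UPK3A, lay under it, and of them UPK3A was lower in SP (-0.18). PTPRC and CD3E of immune cells, with 3.74 and 4.90 in SP and 3.80 and 5.13 in NSP, and all 3 endothelial markers lay under 7.4, while CD68 (-0.31) and CD14 (0.087) lay above it on both arrays. Of 2 measured fibroblast markers LUM lay above it, with 10.74 in SP and 11.13 in NSP (-0.40), and DCN far under it, with 4.21 in SP and 4.14 in NSP. With 1 library for each fraction, the preparation of the arrays and the sorted fraction cannot be told apart.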

How the data were processed

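J82 cells sorted into SP and NSP were each measured on 1 exon array. The log2 values are those the authors deposited as their processed table, made with RMA and Partek per the submitters' processing notes; in general RMA corrects background, brings arrays to 1 distribution and condenses probes to a probe set value. Genome build, software versions and filters: not given in the sources used here, and no probe intensities were used here, so detection above background was not computed. RMA narrows differences of dim probe sets, and 1 array a fraction limits the precision.

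Of 22011 probe sets the platform annotation gives 1 symbol for 14432, several for 2408 and none for 5171; no gene was named from a probe set with several. Symbols were updated by Entrez identifier through RefSeq (GRCh38.p14), which matched 14404 probe sets. Probe sets of a gene were averaged: ZNF706 alone had 2 at the level, and they disagree (0.32 at a mean of 10.47, -0.80 at 7.65). Differences are SP minus NSP; counts were taken at 1.5-fold. No test was run. The gene set, the lists, the roles and the rule for named genes (the 14 largest differences each way, the 8 highest mean values, 4 genes each side of the level, the genes with a role, neighbours past the fold and the corepressors with the 3 largest differences each way) were chosen with earlier results of these data known. Classes by KRAB or SCAN domain were planned from protein sequences, which were not used here. The averaging of probe sets and the calls at 1.5-fold were checked on simulated arrays with planted shifts. The chromosome groups, runs, lists, upstream windows and scalings were not part of that check. Python 3.11.15, numpy 2.4.6, pandas 2.3.3, statsmodels 0.14.6 and matplotlib 3.10.9 were used.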

Additional observations from a re-analysis of the deposited data

How the results depend on the processing

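The counts of 2 higher and 7 lower ZNF genes at 1.5-fold depend on the fold: they were 10 and 23 at a difference of 0.32 and 0 and 1 at 2-fold. They stayed within 1.5 times under median centring, removal of the lowess trend (span 0.3), quantile normalisation, the brightest probe set, all probe sets of a gene, the unrevised symbols, symbols with a letter and removal of the probe sets with equal values. With a level of 8.0 (90 genes) 3 were lower at 1.5-fold and 55 lower by any amount, and with no minimum (284 genes) 13 and 168, as the number of genes changes. The median of -0.072 became -0.028 with the trend removed and -0.035 after quantile normalisation, when the median of all named genes was -0.0061 and -0.022. The share of lower genes was 55.8% with the trend removed.

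The chromosome 19 alternatives were added after seeing the data. The chromosome 19 median lay between -0.18 and -0.12 under the 3 scalings and the other levels, and was -0.092 with 20 of 29 lower when each run of neighbours gave 1 gene. Lower genes on chromosome 19 numbered 28 of 37 at a level of 8.0 and 89 of 125 with no minimum, and on other chromosomes 27 and 79. The median of the other chromosomes had no stable sign: 0.0020 after centring, 0.042 with the trend removed, 0.027 after quantile normalisation, 0.017 with 1 gene for each run and 0 with no minimum. The corepressor median stayed between -0.21 and -0.17. Of 144 values of 48 named genes under the 3 scalings 8 changed sign, all of ZNF532, ZNF598 and ZNF687, which differed by at most 0.022 in size. The comparison of domain classes was not run. No paired analysis was possible because each fraction has 1 array.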

Other observations

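Probe sets left out by the choosing rule gave further values. Those annotated with several genes include genes of the set, such as ZNF146, ZNF701 and ZNF600. Others name genes outside the family, such as RPS16 and DOT1L, so the signal cannot be assigned to 1 ZNF gene. Of 131 probe sets annotated with several genes of which at least 1 is a ZNF gene, 48 had a mean of 7.4 or more. Their median difference was -0.11, and 29 (60.4%) were lower in SP, against 59.7% of all named genes at the level. The 23 whose genes all lie on chromosome 19 had a median of -0.27 with 16 lower (69.6%), and the 25 others -0.040 with 13 lower (52.0%). Among named genes outside the family at the level, 77.7% were lower on chromosome 19 and 58.4% elsewhere. The most negative was shared by ZNF565, ZFP14 and ZNF146 (7.33 in SP and 8.1999 in NSP, -0.87), although the probe set of ZNF146 alone had 0.28. A probe set shared by ZNF702P and ZNF701 had 8.12 in SP and 8.61 in NSP (-0.49), the same direction as the one of ZNF701. The probe set shared by ZNF808, ZNF611, ZNF578 and ZNF600 had 10.09 in SP and 10.05 in NSP (0.035), while the one of ZNF600 alone had -0.60. The most positive was shared by ZNF93, ZNF90, ZNF626 and ZNF56P (8.02 in SP and 7.60 in NSP, 0.42).

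Symbols with a letter after the number were not in the set, and 4 of them reached the level. ZNF280C, on chromosome X, had 8.17 in SP and 7.68 in NSP (0.48), and the chromosome 19 pseudogene ZNF321P had 7.04 in SP and 7.90 in NSP (-0.86, 1.82-fold lower); pseudogenes share sequence with their parent genes, so this value is uncertain. ZNF324B and ZNF75A had 0.039 and 0.061.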
